A study of Mus musculus with 21 samples.

Results

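The genes described here are 37 transcripts of cell division and DNA replication, found by symbol in a table of 55450 genes from the mouse left ventricle. Each of the 37 symbols matched a single identifier. They comprise 15 genes used mainly at the G1/S transition, when a cell licenses and copies its DNA, and 22 used mainly in G2/M, when it divides. The proteasome subunits, which often appear in cell cycle gene sets because they degrade cyclins, are not members. All 21 mice were male, of strain 129S6/SvEv and 12 weeks old, and left ventricular tissue, not separated by cell type, was measured in each. Wild-type littermates (WT) ate the control diet (WT-CD, n = 5) or the same diet with empagliflozin at 0.15 mg/g (WT-EMPA, n = 5). Mice with the genotype label Myh6+/R404Q (R403Q), which carry 1 mutant copy of a myosin heavy chain gene, a mutation of hypertrophic cardiomyopathy, ate the control diet (R403Q-CD, n = 7) or the empagliflozin diet (R403Q-EMPA, n = 4). Empagliflozin (EMPA) is an inhibitor of the renal glucose transporter SGLT2. The sample labels give 16 weeks of diet, whereas mice of 12 weeks of age fit the 2 weeks of diet given in the methods for RNA. The control mice came from 4 cages that held both genotypes and the EMPA mice from 3 other cages, so diet and cage cannot be told apart.

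A dividing cell first loads the MCM helicase on replication origins with the help of Orc1, Cdc6 and Cdt1, then copies its DNA with the sliding clamp Pcna and nucleotides supplied by Rrm2 and Tyms. Cyclins E (Ccne1, Ccne2) and the transcription factor E2f1 act around entry into S phase, while Cdk1 with cyclins A and B (Ccna2, Ccnb1, Ccnb2) drives mitosis. Topoisomerase Top2a untangles chromosomes, Aurora and Polo kinases, kinesins and kinetochore proteins build the spindle, and Bub1, Bub1b, Cdc20 and Ube2c time the separation of chromatids. Most cardiomyocytes of adult mice have left the cell cycle, so such transcripts are scarce in the adult ventricle and may come from any of its cell types. In bulk tissue, fewer cells of a type and less RNA per cell cannot be told apart.

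Libraries held 23491535 to 43539684 counts (median 33329649), so that 3 counts, the limit that a count of 0 allows, stood for 0.0689 to 0.128 CPM, that is, counts scaled to the same library total. The 6 cardiomyocyte markers summed to 55387 to 87913 CPM over the 21 mice, so the markers of the labelled tissue were abundant in each. R403Q-CD mouse 2 stood apart from its group. It had the deepest library and the lowest correlation with mice of its own group (median Spearman 0.951 on log2 CPM, against 0.956 to 0.957 for the other R403Q-CD mice). Its fibroblast markers summed to 4222 CPM and its macrophage markers to 473 CPM, both the highest of any mouse, while its cardiomyocyte markers summed to the lowest value, 55387 CPM. Values of the members without this mouse are given beside the results they altered most.

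Division transcripts were present at low levels, and replication transcripts were more abundant. Per length, in CPM per kilobase of exon (CPM/kb), Pcna had the highest level of the members in WT-CD hearts, at 8.56 ± 0.377 (SD, n = 5). It was followed by the helicase subunits Mcm4 (3.62 ± 0.511), Mcm7 (3.53 ± 0.191) and Mcm3 (2.56 ± 0.351), of which Mcm4 and Mcm7 did not differ beyond their spread. Mcm5 (1.27 ± 0.143), Ccne2 (1.27 ± 0.128) and Mcm2 (1.05 ± 0.0586) came next, so that 7 members lay above 1 CPM/kb, all of G1/S. With the longest transcript as length they numbered 9, with Rrm2 of G1/S (1.09) and the G2/M member Cenpf (1.38) added. By exon length, the G2/M member with the highest level was Cenpf, a kinetochore protein, at 0.994 ± 0.303 CPM/kb, then Cdc20 at 0.749 ± 0.214 and Mki67, the proliferation marker that encodes the Ki-67 antigen, at 0.589 ± 0.277. By the longest transcript, Top2a (0.661 ± 0.394) and Ube2c (0.616 ± 0.205) lay above Mki67 (0.589 ± 0.277), within their spread. The lowest were the mitotic cyclin Ccnb1 (0.0622 ± 0.0802) and the checkpoint kinase Bub1 (0.0619 ± 0.0444), which did not differ beyond their spread. The median level was 0.957 CPM/kb over 14 G1/S members and 0.306 CPM/kb over 22 G2/M members. The remaining member, Orc1, a subunit of the origin recognition complex, had 1 to 15 counts per mouse and was too low to be tested.

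**Figure D1:**
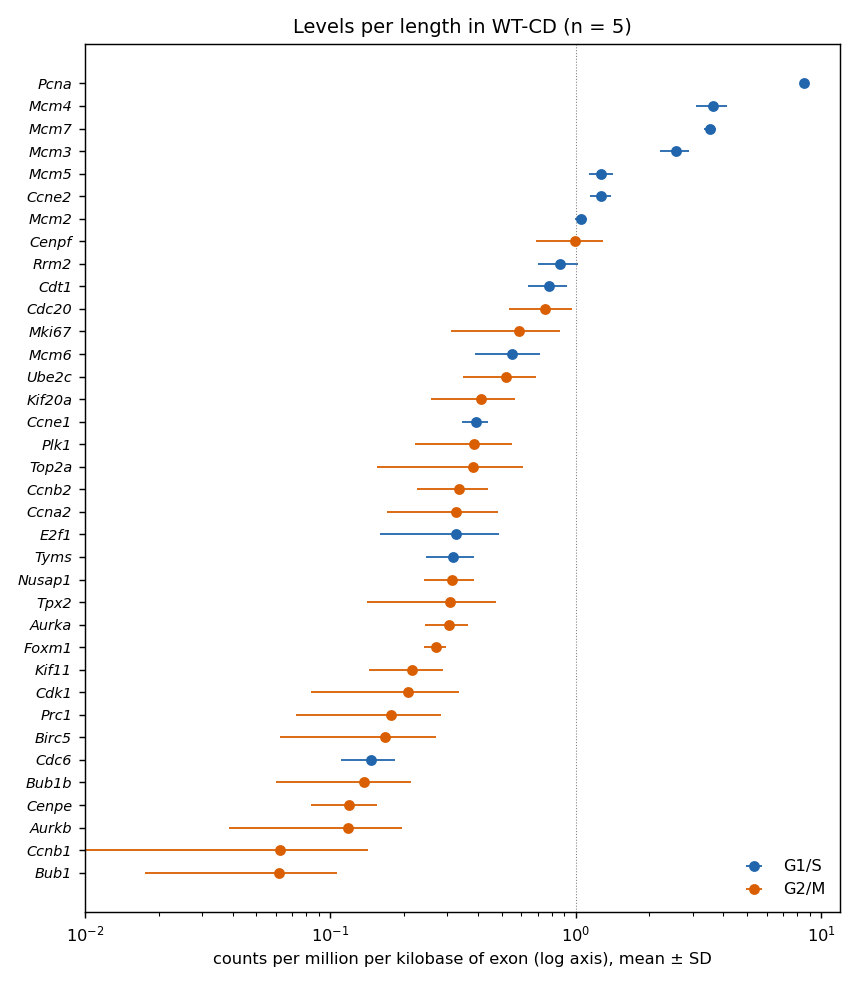
Level of each tested member in WT-CD hearts, in CPM per kilobase of exon on a log axis; points are means and bars SD over 5 mice (bars that reach 0.01 or less are cut there), blue for G1/S and orange for G2/M members. The 7 genes to the right of the dotted line at 1 are all G1/S members, and Ccnb1 and Bub1 are lowest.

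Some counts are less certain than others because of where the genes lie. Exons of 12 members overlap exons of another annotated gene on GRCm38. The shared bases make up 29.3% of the exon bases of Kif20a (with Cdc23 on the opposite strand), 22.8% of Ube2c (Tnnc2), 17.4% of Ccne2 (Ints8), 12.5% of Ccna2 (Exosc9), 11.1% of Prc1 (Rccd1) and 10.8% of Orc1 (Gm12743). The methods name the same strand for counting, without saying whether this is the strand of the gene. If it is, reads of genes on opposite strands were not shared. Annotated pseudogene copies exist for Ccnb1, Ccnb2, Pcna and Tyms, and reads that match a copy equally well would be lost from uniquely aligned counts.

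The promoters of the members show sequence features that did not enter their choice. RefSeq promoter windows of GRCm38.p6, from 250 bases before to 50 bases after the start site, were on hand for 30 of the 37 members. The 3 motifs below were searched on both strands. They were the cell cycle homology region CHR (TTTGAA) and the CCAAT box (CCAAT), which are known from promoters of mitotic genes, and the E2F core (TTCCCGC or TTGGCGC), known from promoters of replication genes. The reverse complement of CCAAT shares letters with TTGGCGC, so matches of these motifs can overlap. The CHR letters were found for 12 of 17 G2/M members (70.6%) and 1 of 13 G1/S members (7.7%, Mcm2), against 20.2% of 27025 genes. The CCAAT letters were found for 15 of 17 G2/M members (88.2%) and 8 of 13 G1/S members (61.5%), against 41.1% of all genes. The E2F letters were found for 3 of 17 G2/M members (17.6%) and 6 of 13 G1/S members (46.2%), against 7.8% of all genes. A match to these letters is a description and not a binding site.

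**Figure D2:**
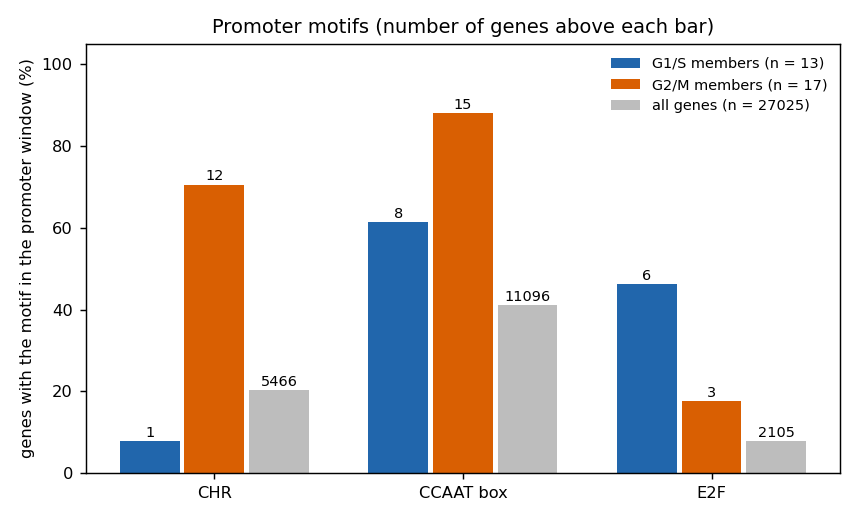
Percentage of genes whose promoter window (250 bases before to 50 after the start) holds each motif, for 13 G1/S members, 17 G2/M members and all 27025 genes with a window; the number of genes with the motif stands above each bar. The CHR bar is tallest for G2/M members (70.6%) and lowest for G1/S members (7.7%), and the E2F bar is tallest for G1/S members (46.2%).

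The following stretches are the 120 bases before the start, 5′ to 3′ on the gene's strand, with matches to the 3 motifs in capitals. Cenpf and Cdc20 are shown as the G2/M members with the highest level per length, and Mcm7 as the G1/S member chosen in the same way after Pcna among those with a promoter window. The stretches of Pcna and of a further Mcm7 start are not shown, because annotated exons cover them. Top2a and Cdk1 were added after their values were seen, since they carry the diet result described below. All 5 lie on the minus strand, at chr1:189688087-189688206 (Cenpf), chr4:118437344-118437463 (Cdc20), chr5:138171267-138171386 (Mcm7), chr11:99024190-99024309 (Top2a) and chr10:69352913-69353032 (Cdk1).
Cenpf: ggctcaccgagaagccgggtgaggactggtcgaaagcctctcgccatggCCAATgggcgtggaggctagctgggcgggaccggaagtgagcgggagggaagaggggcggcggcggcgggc
Cdc20: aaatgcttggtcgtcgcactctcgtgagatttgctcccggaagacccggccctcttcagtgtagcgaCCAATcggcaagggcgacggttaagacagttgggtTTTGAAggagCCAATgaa
Mcm7: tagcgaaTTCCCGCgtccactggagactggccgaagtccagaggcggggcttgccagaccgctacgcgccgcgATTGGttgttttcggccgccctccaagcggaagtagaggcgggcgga
Top2a: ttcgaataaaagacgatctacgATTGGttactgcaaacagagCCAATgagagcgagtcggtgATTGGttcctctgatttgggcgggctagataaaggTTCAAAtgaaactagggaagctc
Cdk1: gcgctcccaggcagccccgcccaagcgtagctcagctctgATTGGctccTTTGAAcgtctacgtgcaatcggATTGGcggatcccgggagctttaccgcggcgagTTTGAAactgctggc
The first base of the CHR match nearest the start lay at position -23 in Top2a, -15 in Cdk1 and -18 in Cdc20, counted from the start site. Top2a held 3 CCAAT matches in this stretch and Cdk1 held 2. In Cenpf the CHR letters lay at position 3, after the start, so its stretch shows only a CCAAT match.

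The first question was whether the members differ between mutant and wild-type hearts on the control diet. G2/M members were on the whole higher in R403Q-CD than in WT-CD hearts, but by less than the spread between mice, and the difference rested largely on R403Q-CD mouse 2. None of the 36 tested members passed the threshold (edgeR quasi-likelihood test, adjusted p under 0.05 over 17025 genes), where 0.576% of all tested genes did. At an unadjusted p under 0.05 the members that were higher numbered 3, and 11.2% of all genes met that rule. They numbered 1 without R403Q-CD mouse 2 or without WT-CD mouse 1, 2 or 3, and 0 without WT-CD mouse 4. None was lower, against 8.45% of all genes. All 22 G2/M members had a positive log2 fold change (median 0.40), as did 52.5% of all tested genes, whereas 5 of 14 G1/S members did (median -0.01). The median over all genes tested was 0.01. The G1/S median lay near 0 and took either sign, at -0.06 without R403Q-CD mouse 2, 0.05 with cage as a factor and 0.06 with scaling to library size alone. Without R403Q-CD mouse 2, 15 of 22 G2/M members were positive and their median was 0.09. Without WT-CD mouse 5, the highest mouse of its group, all 22 were positive with a median of 0.79, 12 members were higher at an unadjusted p under 0.05 (11 of G2/M), and again none passed the threshold.

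Mki67 lay at 6.22, 4.08, 3.90, 4.77 and 10.6 CPM in WT-CD mice and ranged from 4.20 to 14.4 CPM (median 5.84) in R403Q-CD mice. The groups overlapped, with the highest value of each in the mouse named above, and the log2 fold change was 0.15 ± 0.28 (SE; edgeR adjusted p = 0.796). Without R403Q-CD mouse 2 it was -0.10, on the other side of 0. The members with the smallest p were Tyms, Cenpf and Ccnb2. Tyms, the thymidylate synthase, lay at 1.36 to 2.51 CPM in WT-CD and 2.23 to 6.32 CPM in R403Q-CD (log2 fold change 0.54 ± 0.23, adjusted p = 0.217 by edgeR). The log2 fold change of Tyms was 0.26 without R403Q-CD mouse 2 (edgeR adjusted p = 0.371). Cenpf lay at 14.02, 22.1, 9.12, 15.1 and 16.4 CPM in WT-CD and at 11.4 to 49.3 CPM (median 28.9) in R403Q-CD (log2 fold change 0.78 ± 0.34, edgeR adjusted p = 0.221). Its order of mice was unlike that of other mitotic genes: the R403Q-CD mouse that was highest for Mki67 and Top2a was lowest of its group for Cenpf, and the highest was mouse 3. Ccnb2 lay at 0.253 to 0.661 CPM in WT-CD and 0.331 to 2.50 CPM in R403Q-CD (log2 fold change 0.92 ± 0.41, edgeR adjusted p = 0.224), and without R403Q-CD mouse 2 its log2 fold change was 0.55. Ccnb2 had under 10 counts in 4 of the 21 mice.

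No subunit of the replication helicase passed the threshold between genotypes. Among its 6 subunits, log2 fold changes ran from -0.12 ± 0.08 (SE) for Mcm4 to 0.29 ± 0.25 for Mcm6, with edgeR adjusted p of 0.393 and 0.546. Mcm6 had a log2 fold change of 0.08 when R403Q-CD mouse 2 was left out. Mcm4 lay at 13.0 ± 1.83 CPM (SD, n = 5) in WT-CD and 12.5 ± 1.14 CPM (n = 7) in R403Q-CD, and Mcm2 at 7.31 ± 0.407 and 7.20 ± 1.61 CPM. Mcm4 and Mcm2 were the lower members with the smallest p, and their groups overlapped. Pcna lay at 20.5 ± 0.906 and 22.6 ± 2.18 CPM (log2 fold change 0.07 ± 0.06, edgeR adjusted p = 0.530).

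Within cages the direction of the G2/M members varied. The 4 control-diet cages held 1, 2, 1 and 1 WT mice and 1, 1, 2 and 3 R403Q mice, so several of the means compared were single mice. In this order, the R403Q mean exceeded the WT mean for 14, 21, 18 and 6 of 22 G2/M members. The median log2 ratio was 0.27, 2.06, 0.39 and -0.48. The cage at 2.06 held R403Q-CD mouse 2 and the cage at -0.48 held WT-CD mouse 5. With cage as a factor, 22 of 22 G2/M members were positive (median 0.44) and none of the members passed the threshold.

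**Figure D3:**
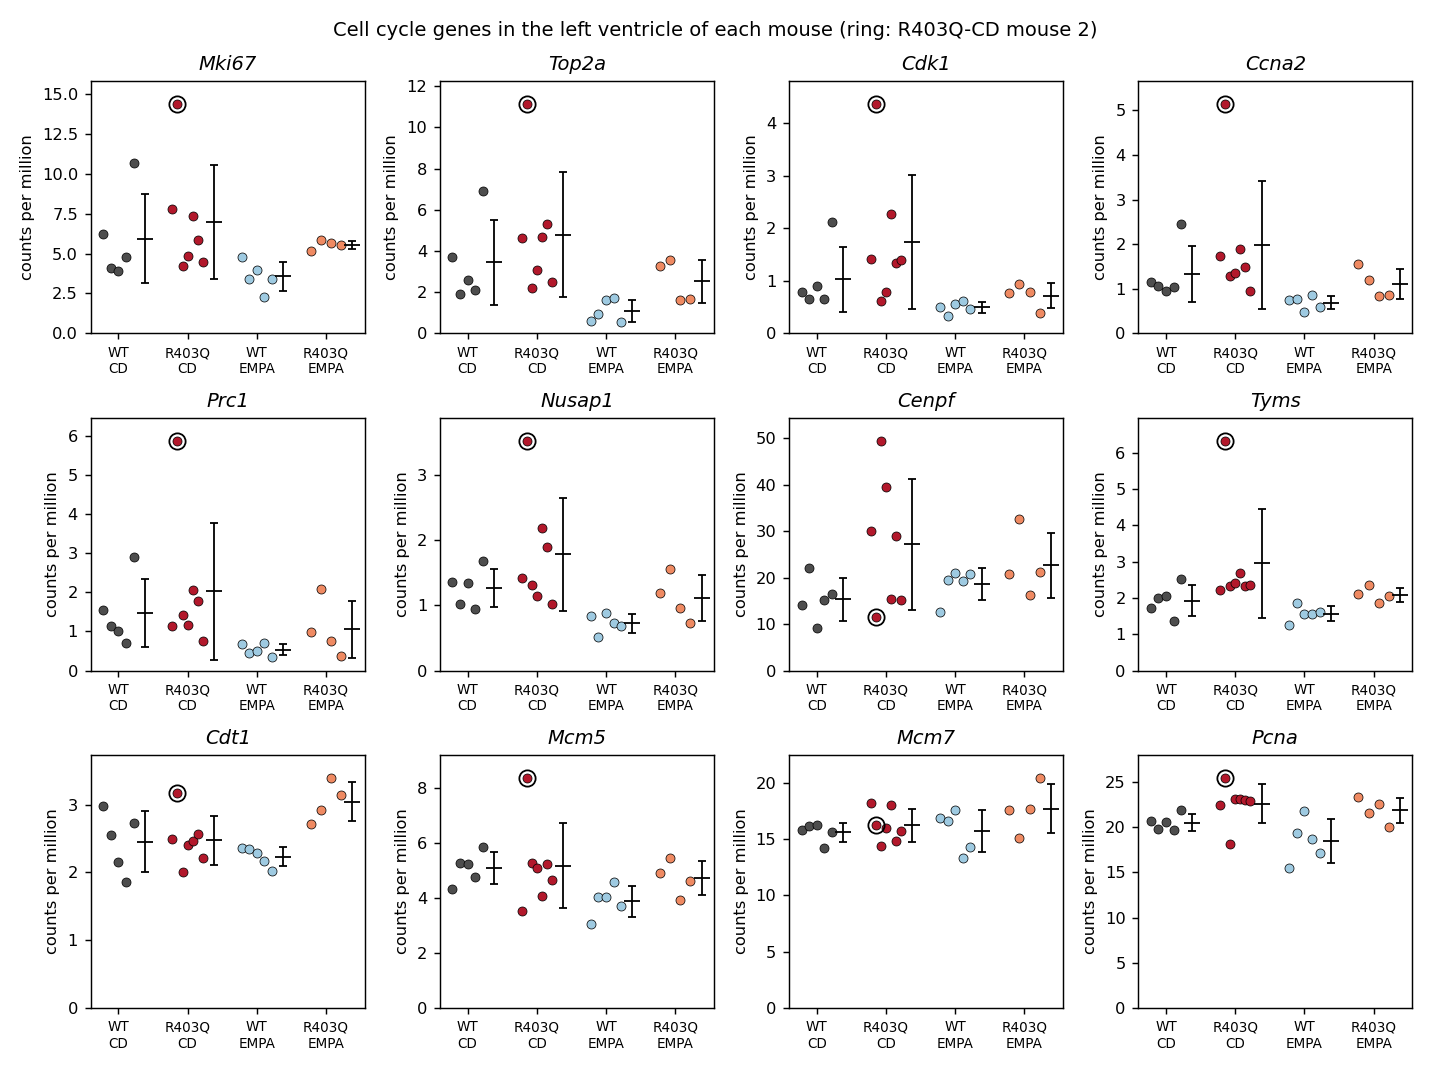
CPM of 12 members in each of the 21 mice, by genotype and diet; each point is a mouse, and the dash with its bar is the group mean ± SD (n = 5, 7, 5 and 4 from left to right). The ringed R403Q-CD mouse 2 is highest of all mice in 9 panels and lowest of its group for Cenpf, and WT-EMPA mice lie below all WT-CD mice for Top2a, Cdk1, Ccna2, Prc1 and Nusap1.

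R403Q-CD mouse 2 had the highest CPM of all 21 mice for 20 of 22 G2/M members and 9 of 14 G1/S members, and WT-CD mouse 5 was highest of its group for 17 of 22 and 6 of 14. Relative to the WT-CD mean of each gene, the median log2 value of the G2/M members was 1.44 in R403Q-CD mouse 2 and 0.83 in WT-CD mouse 5, and ran from -0.84 to -0.34 in the 5 WT-EMPA mice. The same median for the G1/S members stayed between -0.30 and 0.25 in all mice. Over the 21 mice, log2 CPM of Mki67 correlated with that of Top2a (Pearson r = 0.746, permutation p = 0.0001; Spearman rho = 0.749, permutation p = 0.00016) and of Cdk1 (r = 0.775, permutation p = 0.00014; rho = 0.708, permutation p = 0.00054). These were 2 of 4 relations tested, and the Benjamini-Hochberg adjusted permutation p was 0.00028 for both Pearson values. The relations of Mki67 with Mcm5 (r = 0.355, adjusted permutation p = 0.155; rho = 0.121, adjusted permutation p = 0.603) and with Ccne1 (r = -0.049, adjusted permutation p = 0.818; rho = -0.225, adjusted permutation p = 0.438) did not pass. Without the 2 mice farthest from the Mki67 median, R403Q-CD mouse 2 and WT-EMPA mouse 4, r was 0.726 for Top2a and 0.716 for Cdk1. Within the 12 control-diet mice r was 0.939 and 0.845 (adjusted permutation p = 0.00024 and 0.00328). Within the 9 EMPA mice r was 0.330 and 0.324, and the exact permutation test gave an adjusted p of 0.760 for both. The difference between diets in these correlations was not tested. With the group means subtracted, over 21 mice, Top2a had r = 0.591 (adjusted permutation p = 0.0133) and rho = 0.422 (adjusted permutation p = 0.115), and Cdk1 had r = 0.713 (adjusted permutation p = 0.0024) and rho = 0.517 (adjusted permutation p = 0.0724). Neither rank correlation passed after this subtraction.

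**Figure D4:**
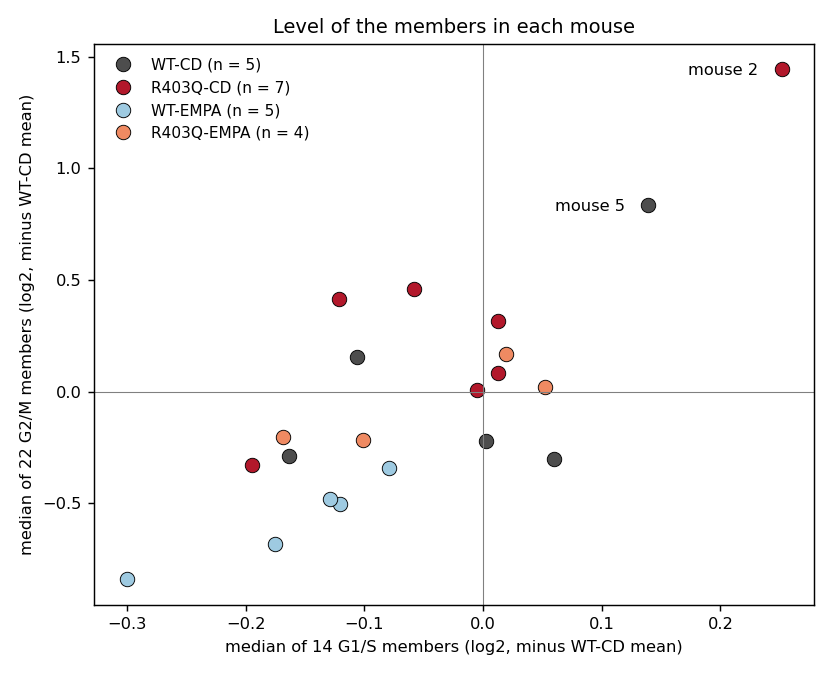
Each point is a mouse, placed by the median log2 CPM of 14 G1/S members (horizontal) and 22 G2/M members (vertical) after subtracting each gene's WT-CD mean; colours give the group. R403Q-CD mouse 2 (1.44) and WT-CD mouse 5 (0.83) are highest on the vertical axis, the 5 WT-EMPA mice lie between -0.84 and -0.34, and the horizontal axis spans only -0.30 to 0.25.

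The second question was whether EMPA alters the members in mutant hearts. G2/M members were on the whole lower in R403Q-EMPA than in R403Q-CD hearts, within the spread between mice. None of the 36 tested members passed the threshold by edgeR, and neither did any of the 17025 genes tested (0%). DESeq2 called none of the members either. At an unadjusted p under 0.05, Cdk1, Kif20a and Nusap1 were lower (5.73% of all genes met that rule) and Cdt1 was higher (6.74% of all genes). The lower members at this rule numbered 0 without R403Q-EMPA mouse 4, 1 without R403Q-CD mouse 2, R403Q-CD mouse 5 or R403Q-EMPA mouse 3, 5 without R403Q-CD mouse 3, 6 without R403Q-CD mouse 1 or 7, and 8 without R403Q-EMPA mouse 2. They numbered 0 by limma voom with cage as a random effect and 2 by limma voom without it. The log2 fold change was negative for 21 of 22 G2/M members (median -0.58) and 11 of 14 G1/S members (median -0.09), against 50.8% of all genes. Without R403Q-CD mouse 2, it was negative for 18 of 22 G2/M members with a median of -0.36 and for 9 of 14 G1/S members with a median of -0.01.

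Cdk1, the kinase that drives entry into mitosis, lay at 0.622 to 4.36 CPM (median 1.39) in R403Q-CD mice and at 0.76, 0.948, 0.792 and 0.383 CPM in R403Q-EMPA mice. The groups overlapped, and the log2 fold change was -1.21 ± 0.47 (SE), a 2.31-fold lower level (edgeR adjusted p = 0.322). Kif20a, a kinesin of cytokinesis, lay at 1.92 to 4.27 CPM (median 2.09) in R403Q-CD mice and at 1.45, 1.84, 1.67 and 1.62 CPM in R403Q-EMPA mice. It was the sole member whose groups did not overlap (0.764% of all genes were so separated and lower), with a log2 fold change of -0.54 ± 0.24 (edgeR adjusted p = 0.366). Top2a differed by -0.87 ± 0.43 and Mki67 by -0.29 ± 0.30 on the log2 scale (edgeR adjusted p = 0.413 and 0.724). Leaving out R403Q-CD mouse 2, the log2 fold change was -0.82 for Cdk1, -0.37 for Kif20a, -0.40 for Nusap1, -0.55 for Top2a and -0.04 for Mki67. Cdt1, which loads the MCM helicase, lay at 2.01 to 3.17 CPM (median 2.47) in R403Q-CD and at 2.72, 2.93, 3.39 and 3.15 CPM in R403Q-EMPA mice (log2 fold change 0.32 ± 0.13, edgeR adjusted p = 0.338). Mcm7 was the other higher member among those with the smallest p, at 16.2 ± 1.46 CPM (SD, n = 7) and 17.7 ± 2.18 CPM (n = 4), with an edgeR adjusted p of 0.477.

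The same diet was compared in wild-type hearts. G2/M members had on the whole lower values in WT-EMPA than in WT-CD hearts, Cenpf excepted, and the size of the difference depended on WT-CD mouse 5. None of the 36 tested members passed the threshold by edgeR, nor by DESeq2, where edgeR called 0.0289% of 17309 genes. At an unadjusted p under 0.05, 13 members were lower (10 of G2/M and 3 of G1/S) against 5.08% of all genes, and none was higher, against 5.94% of all genes. The log2 fold change was negative for 21 of 22 G2/M members (median -0.79) and 12 of 14 G1/S members (median -0.22), against 50.9% of all genes. Without WT-CD mouse 5 the G2/M median was -0.52 and the members lower at an unadjusted p under 0.05 numbered 4. By limma voom with cage as a random effect they numbered 8.

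In 5 members, all of G2/M, the WT-EMPA values lay below every WT-CD value, as they did for 1.9% of all genes. Top2a lay at 3.70, 1.92, 2.59, 2.12 and 6.92 CPM in WT-CD mice and at 0.612, 0.959, 1.604, 1.72 and 0.573 CPM in WT-EMPA mice. Its log2 fold change was -1.66 ± 0.44 (SE), a 3.16-fold lower level (edgeR adjusted p = 0.188). The other members of the 5 were Prc1, which bundles spindle microtubules for cytokinesis (log2 fold change -1.45 ± 0.51), Nusap1, another microtubule binder (-0.80 ± 0.29), Ccna2 (-0.93 ± 0.38) and Cdk1 (-1.06 ± 0.44), with edgeR adjusted p from 0.293 to 0.380. Without WT-CD mouse 5, the log2 fold change was -0.60 for Cdk1 and -0.58 for Ccna2. Cdc20, the activator of the anaphase-promoting complex, had the next smallest p after Top2a. It lay at 1.88, 1.58, 0.908, 1.075 and 1.55 CPM in WT-CD and 0.556 to 1.05 CPM in WT-EMPA mice (log2 fold change -0.79 ± 0.27, edgeR adjusted p = 0.288). Mki67 lay at 4.81, 3.41, 3.96, 2.31 and 3.38 CPM in WT-EMPA mice, overlapping the WT-CD range (log2 fold change -0.72 ± 0.30, edgeR adjusted p = 0.371), and its log2 fold change was -0.40 without WT-CD mouse 5. The higher members with the smallest p were Cenpf, at 18.6 ± 3.41 CPM (SD, n = 5) in WT-EMPA and 15.3 ± 4.67 CPM in WT-CD (edgeR adjusted p = 0.793), and Mcm4, at 13.1 ± 1.35 and 13.0 ± 1.83 CPM (edgeR adjusted p = 0.954). Ccnb1 was near the counting limit, with 0 to 31 counts per WT-CD mouse and 0 to 8 per WT-EMPA mouse.

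The comparison of both EMPA groups with both control groups, which was added after the data had been seen, gave the members that passed a threshold. Top2a and Cdk1 were lower on EMPA. Both are G2/M genes, and they were the members called of 36, whereas 0.936% of 17309 genes were called lower and 2.91% were called in either direction. Top2a fell by 1.27 ± 0.31 on the log2 scale (SE; edgeR adjusted p = 0.0303), a 2.41-fold lower level, and Cdk1 fell by 1.13 ± 0.31 (edgeR adjusted p = 0.0476), a 2.19-fold lower level. At an unadjusted p under 0.05, 21 members were lower, 17 of them of G2/M, against 9.41% of all genes, and none was higher, against 10.7% of all genes. The lower members at this rule numbered 13 without WT-CD mouse 5 and 12, of which 11 were of G2/M, by limma voom with cage as a random effect. The log2 fold change was negative for 21 of 22 G2/M members (median -0.67) and 11 of 14 G1/S members (median -0.19), against 52.4% of all genes. The members next in order of p were Nusap1 (-0.72 ± 0.20, edgeR adjusted p = 0.0548), Prc1 (-1.16 ± 0.35, 0.0738) and Ccna2 (-0.86 ± 0.26, 0.0754). Mki67 differed by -0.51 ± 0.21 (edgeR adjusted p = 0.172). Cenpf differed by 0.02 ± 0.23 (edgeR adjusted p = 0.978), and by -0.06 without R403Q-CD mouse 2. The 2 higher members with the smallest p were Mcm7 (0.08 ± 0.06) and Cdt1 (0.10 ± 0.09), with edgeR adjusted p of 0.476 and 0.571.

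The calls were near the threshold and depended on the tool and on which mice were included. By limma voom, Top2a was the 1 member called (adjusted p = 0.0484), where 2.71% of all genes were. By limma voom with cage as a random effect, none of the members passed, where 0.653% of all genes did, and Top2a had an adjusted p of 0.112. DESeq2 called 5 members lower, namely Ccna2, Cdk1, Nusap1, Prc1 and Top2a, and it called 5.81% of all genes in either direction. Leaving out each mouse in turn gave 0 to 3 members. None passed without WT-CD mouse 5, WT-EMPA mouse 1, WT-EMPA mouse 5, R403Q-EMPA mouse 3 or R403Q-EMPA mouse 4. Without any 1 of WT-CD mice 1 to 4, WT-EMPA mice 2 to 4, R403Q-CD mouse 5 or 6 or R403Q-EMPA mouse 1, Top2a was the 1 member called. The calls numbered 3 without R403Q-CD mouse 1, 2 or 3 (Cdk1, Nusap1 and Top2a) and without R403Q-EMPA mouse 2 (Nusap1, Prc1 and Top2a). In these fits, in the same order, 3.92%, 4.22%, 5.35% and 1.87% of all genes were called. Without R403Q-CD mouse 2 all 22 G2/M members had a negative log2 fold change (median -0.51).

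**Figure D5:**
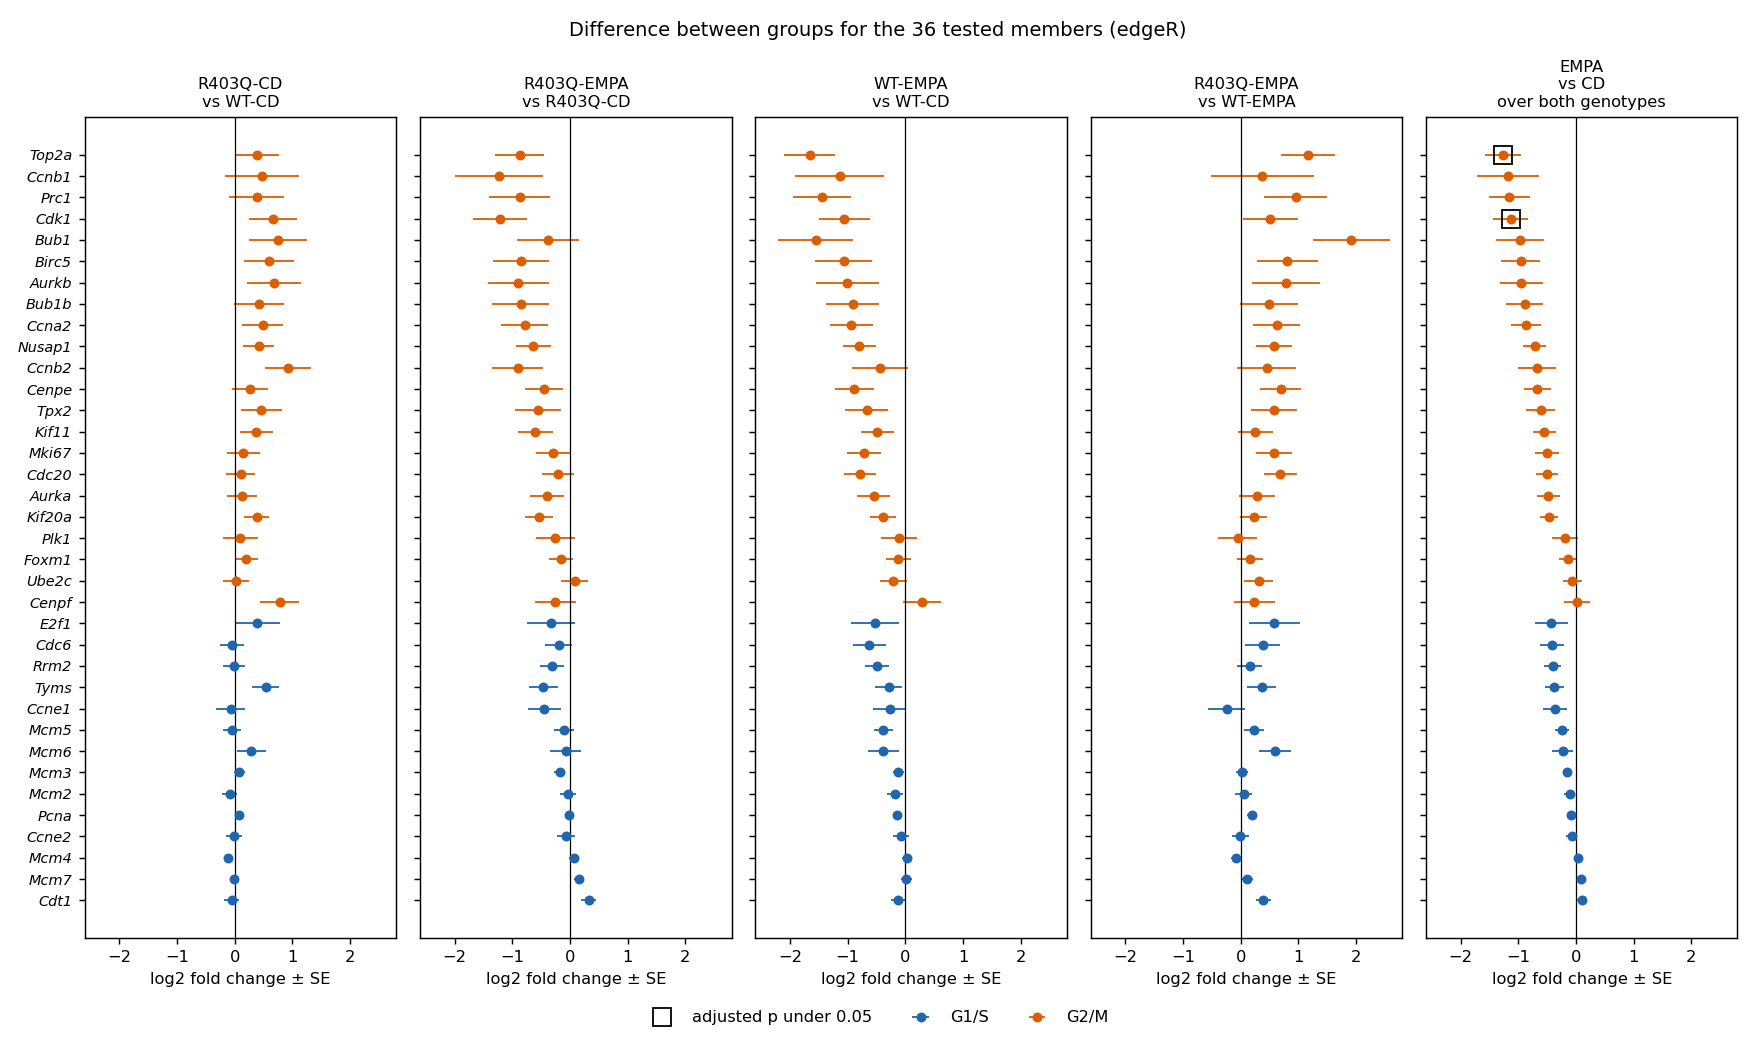
Log2 fold change ± SE of the 36 tested members in 5 comparisons (edgeR), ordered within G2/M (orange) and G1/S (blue) by the comparison of EMPA with CD over both genotypes; squares mark adjusted p under 0.05. In the 3 comparisons of EMPA with CD, 21 of 22 G2/M members lie left of 0 (the exception is Cenpf, or Ube2c within R403Q), and the squares mark Top2a and Cdk1 in the right-hand panel.

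The group levels of helicase genes and Pcna can be set beside those of mitotic genes. Mcm7 had group means of 15.6 ± 0.846 CPM (WT-CD, n = 5), 16.2 ± 1.46 (R403Q-CD, n = 7), 15.7 ± 1.83 (WT-EMPA, n = 5) and 17.7 ± 2.18 (R403Q-EMPA, n = 4). Mcm3 had 9.59 ± 1.318, 10.6 ± 1.21, 8.75 ± 0.513 and 9.19 ± 0.839 CPM in the same order. Mcm5 had 5.08 ± 0.570, 5.16 ± 1.54, 3.87 ± 0.567 and 4.71 ± 0.628 CPM. Mcm6 had 2.58 ± 0.760, 3.32 ± 1.48, 1.97 ± 0.388 and 3.07 ± 0.992 CPM. Pcna had 20.5 ± 0.906, 22.6 ± 2.18, 18.5 ± 2.40 and 21.9 ± 1.39 CPM. WT-EMPA had the lowest mean of Mcm3, Mcm5, Mcm6 and Pcna, and of Mcm2 (6.42 ± 0.977 CPM). For Mcm7 the lowest was WT-CD, and for Mcm4, at 13.0 ± 1.83, 12.5 ± 1.14, 13.1 ± 1.35 and 12.9 ± 0.408 CPM, it was R403Q-CD. The Top2a means were 3.45 ± 2.06, 4.80 ± 3.04, 1.09 ± 0.543 and 2.53 ± 1.03 CPM, and the Cdk1 means 1.03 ± 0.618, 1.74 ± 1.27, 0.494 ± 0.103 and 0.721 ± 0.240 CPM. For Ccnb1 they were 0.262 ± 0.338, 0.393 ± 0.250, 0.121 ± 0.0856 and 0.162 ± 0.0334 CPM, at 0 to 33 counts per mouse.

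Among treated mice, G2/M members had on the whole higher values in R403Q-EMPA than in WT-EMPA hearts. None of the 36 tested members passed the threshold by edgeR or DESeq2, where edgeR called 0.0578% of all genes. At an unadjusted p under 0.05, 6 members were higher (Cdt1, Bub1, Top2a, Pcna, Cdc20 and Mcm6), against 8.14% of all genes, and none was lower, against 6.56% of all genes. The higher members at this rule numbered 2 without WT-EMPA mouse 5, 3 without WT-EMPA mouse 1 or R403Q-EMPA mouse 2, and 11 in a fit of these 2 groups alone. In 5 members, Cdt1, Bub1, Cdc20, Mki67 and Tyms, every R403Q-EMPA value lay above every WT-EMPA value, as in 5.43% of all genes. The log2 fold change was positive for 21 of 22 G2/M members (median 0.54) and 11 of 14 G1/S members (median 0.18), against 51.7% of all genes. Cdt1 lay at 2.36, 2.34, 2.29, 2.17 and 2.02 CPM in WT-EMPA mice, all below the R403Q-EMPA values given above (log2 fold change 0.39 ± 0.13, edgeR adjusted p = 0.189). Bub1 had 1 to 7 counts per WT-EMPA mouse and 7 to 16 per R403Q-EMPA mouse (log2 fold change 1.92 ± 0.67, edgeR adjusted p = 0.202). Mki67 lay at 5.18, 5.83, 5.63 and 5.53 CPM in R403Q-EMPA mice, which is the narrowest spread of the 4 groups (log2 fold change 0.58 ± 0.31, edgeR adjusted p = 0.393). The lower members with the smallest p were Mcm4 (-0.07 ± 0.09) and Ccne1 (-0.24 ± 0.32), with edgeR adjusted p of 0.717 and 0.746. Both EMPA cages that held both genotypes had 1 WT-EMPA and 2 R403Q-EMPA mice. In each, the R403Q mean was higher than the single WT mouse for 19 of 22 G2/M members. Those WT mice were WT-EMPA mouse 4 and WT-EMPA mouse 5, and mouse 5 had the lowest G2/M median of the 21 mice (-0.84).

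Whether the diet acted differently in the 2 genotypes was tested as an interaction, which is the EMPA difference in R403Q mice minus that in WT mice. None of the 36 tested members passed, nor did any of the 17309 genes (0%), and DESeq2 called none. Cdt1 alone had an unadjusted p under 0.05 (1.46% of all genes did in that direction), with an interaction of 0.45 ± 0.18 on the log2 scale and an edgeR adjusted p of 0.999. The interaction for Top2a was 0.78 ± 0.60, for Mki67 0.43 ± 0.41, for Cdc20 0.58 ± 0.38, for Cenpf -0.54 ± 0.47 and for Ccnb2 -0.48 ± 0.67, each with an edgeR adjusted p of 0.999. The interaction was positive for 25 of 36 members (median 0.13), against 49.8% of all genes. These values depended on single mice. Without R403Q-CD mouse 2 the interaction was positive for 20 of 22 G2/M and 12 of 14 G1/S members (median of the members 0.30), 5 of them at an unadjusted p under 0.05 (Bub1, Cdc20, Cdt1, Mcm5 and Top2a). It was then 1.11 for Top2a, 0.68 for Mki67 and -0.10 for Ccnb2. Without WT-CD mouse 5 it was positive for 9 of 22 G2/M and 10 of 14 G1/S members (median of the members 0.02, of G2/M -0.15), with Top2a at 0.36 and Mki67 at 0.11. None of the members passed the threshold in either case.

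Related lists were examined for context, and their members share mice with the comparisons above. Of 47 other mitosis genes, 42 were tested, and in the comparison of EMPA with CD over both genotypes 5 were called lower (0.936% of all genes were) and 40 had a negative log2 fold change (median -0.59). The 5 were the kinases Nek2 (-1.38 ± 0.31) and Ttk (-1.47 ± 0.39), the kinetochore scaffold Knl1 (-1.23 ± 0.31) and the cytokinesis proteins Racgap1 (-0.66 ± 0.16) and Kif23 (-0.63 ± 0.16), with edgeR adjusted p from 0.0246 to 0.0452. Of 21 subunits and partners of the APC/C and SCF ubiquitin ligases, 1 was called, the small CDK-binding protein Cks1b (-0.45 ± 0.10, edgeR adjusted p = 0.0211), and the median was -0.06. None of 43 genes of the replication machinery was called (median -0.06, 7 lower and 0 higher at an unadjusted p under 0.05, against 9.41% and 10.7% of all genes). None of 21 G1 regulators (median 0.02) or 7 CDK inhibitors (median 0.07) was called. In the separate comparisons of genotype, diet and their interaction, none of these genes passed the threshold. The calls over both genotypes in these lists and in the marker lists below came from the edgeR fit without a cage term. That fit called 504 of all genes, against 469 by limma voom and 113 by limma voom with cage as a random effect. How far the calls of the lists depend on tool, cage or single mice was not examined.

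Markers of some other cell types moved with the groups too. The 6 macrophage markers were all higher in R403Q-CD than in WT-CD hearts at an unadjusted p under 0.05 (11.2% of all genes were), and the growth factor receptor Csf1r passed the threshold (log2 fold change 0.46 ± 0.09, edgeR adjusted p = 0.0400). Their summed level was 184 to 257 CPM in WT-CD, 262 to 473 in R403Q-CD, 150 to 255 in WT-EMPA and 286 to 378 in R403Q-EMPA hearts. Fibroblast markers were higher in R403Q-CD than in WT-CD hearts in 5 of 6 cases at that rule and summed to 1060 to 1789 CPM in WT-CD, 1475 to 4222 in R403Q-CD, 965 to 1584 in WT-EMPA and 1668 to 1991 in R403Q-EMPA hearts. Between EMPA and CD over both genotypes, none of the macrophage markers (median log2 fold change 0.01) or fibroblast markers (median -0.13) was called, where 2.91% of all genes were. Lymphocyte markers summed to 0.513 to 1.86 CPM over all mice, and none of those tested was called in any comparison. With diet, 3 of 4 tested neutrophil markers (Retnlg, S100a8 and S100a9) and the erythroid markers Alas2, Hbb-bt, Hbb-bs and Hba-a1 passed the adjusted threshold as higher on EMPA in the comparison over both genotypes, where 1.98% of all genes did. Neutrophil markers summed to 0.895 to 7.24 CPM in WT-CD, 1.96 to 7.74 in R403Q-CD, 5.95 to 44.3 in WT-EMPA and 4.02 to 26.2 in R403Q-EMPA hearts, and Ly6g was at 0 in all control-diet mice. Erythroid markers summed to 690 to 1264, 974 to 1691, 1173 to 1975 and 1217 to 2642 CPM in the same order. Atrial markers, which should be low in a clean ventricle, summed to 26.2 to 319 CPM in WT-CD, 29.7 to 827 in R403Q-CD, 24.1 to 100.3 in WT-EMPA and 22.8 to 74.4 in R403Q-EMPA hearts. The highest of these values were those of WT-CD mouse 5 and R403Q-CD mouse 2. Over both genotypes, all 5 tested atrial markers had a negative log2 fold change on EMPA (median -2.22), 4 of them at an unadjusted p under 0.05 (9.41% of all genes) and none past the threshold. Within R403Q mice all 5 were negative as well (median -3.02), 3 of them at that rule (5.73% of all genes). Of the 6 endothelial markers, 3 had a positive and 3 a negative log2 fold change in the comparison of EMPA with CD over both genotypes (median 0.0017), and Kdr was the 1 called (0.35 ± 0.08, edgeR adjusted p = 0.0217). Endothelial markers summed to 654 to 800 CPM in WT-CD, 752 to 919 in R403Q-CD, 668 to 780 in WT-EMPA and 774 to 975.1 in R403Q-EMPA hearts. All 6 mural markers had a negative log2 fold change in that comparison (median -0.29) and none was called, with summed levels of 871 to 1219, 962 to 1463, 772 to 1075 and 831 to 1192 CPM in the same order. The part of any of these markers in the results above was not tested.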

How the data were processed

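Left ventricular RNA of 21 mice was sequenced by the authors as poly(A) read pairs and aligned to mm10 with STAR 2.6.0c, with FastQC 0.11.7 for quality. The deposited counts are whole read pairs per Ensembl gene from featureCounts (Subread 1.6.2), without mitochondrial genes. The deposited log2 values are variance-stabilized by the authors with DESeq2 1.32.0 and were used only as an alternative. Samples were grouped by title. Symbols came from GENCODE annotation of GRCm38, which named 55104 of 55450 genes.

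Counts were tested with edgeR 4.0.16 (quasi-likelihood, filterByExpr with a minimum count of 10, TMM scaling, Benjamini-Hochberg over all tested genes, threshold 0.05). WT-CD, R403Q-CD and R403Q-EMPA shared a fit for the first 2 comparisons, and all 4 groups shared a fit for the others. R was 4.3.3, and the scripts were tested on simulated data. For correlations, a prior count of 2 was added before taking log2 CPM, with 100000 permutations, or exact permutation under 10 mice; tests were two-sided. CPM are counts scaled by the total count of each mouse, and the limit of 3 counts covers counting error only. The log2 CPM of the correlations, of the medians per mouse and of the search for outlying mice were also scaled by TMM.

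All 37 members were accounted for. Genes named in detail were Mki67, Top2a, Cdk1, Ccnb1, Mcm2 to Mcm7 and Pcna, the 2 higher and 2 lower tested members with the smallest p in each comparison, every called member, and up to 5 called genes of each other list. The result of 1 marker gene is not reported here. Other members were named after their values were seen. The members and lists were chosen with earlier results of these data known. Alternatives were DESeq2 1.42.0, other scalings, no filter, limma 3.58.1 on the deposited log2 values, cage as a term, other fits and each mouse left out. Promoters came from RefSeq (GRCm38.p6).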

Additional observations from a re-analysis of the deposited data

Results flagged for a closer look

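Among the 36 tested members in 4 groups, 144 sets of mice were examined for a mouse far from the others on the log2 scale, and 14 were found; chance alone flags about 1 in 20 such sets, and sets that share a mouse are not independent. R403Q-CD mouse 2 accounted for 6 of them, as the highest of its group for Ccna2 (5.14 CPM, others up to 1.89), Cdc20 (3.33 CPM, others up to 1.76), Kif11 (5.08 CPM, others up to 2.29), Kif20a (4.27 CPM, others up to 2.76), Rrm2 (4.07 CPM, others up to 2.45) and Tyms (6.32 CPM, others up to 2.69). WT-CD mouse 5 accounted for 4, as the highest of its group for Ccna2 (2.46 CPM, others up to 1.16), E2f1 (1.95 CPM, others up to 0.875), Kif11 (2.56 CPM, others up to 1.45) and Kif20a (2.96 CPM, others up to 1.62). R403Q-CD mouse 3 was highest for Mcm2 (10.5 CPM, others up to 7.70) and lowest for Pcna (18.2 CPM, others from 22.4). R403Q-CD mouse 1 was lowest for Mcm3 (8.12 CPM, others from 10.5) and WT-EMPA mouse 1 was lowest for Cenpf (12.7 CPM, others from 19.3).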

How the results depend on the processing

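No paired analysis was possible because the labels give no replicate numbers shared between groups. The genotypes were instead compared within cages, with cage as a factor. In the 5 comparisons planned from the design, no tested member passed the threshold under any alternative or with any mouse left out. In the comparison of EMPA with CD over both genotypes, added after the data had been seen, 2 members passed, against 5 with DESeq2, 1 with scaling to library size alone, 1 without a filter on low counts, 1 with limma on the deposited log2 values, 1 with limma voom (chosen after seeing the data) and 0 with limma voom and cage as a random effect; leaving out each mouse in turn gave 0 to 3. The cause of these shifts was not tested. The log2 fold change of Mki67 between R403Q-CD and WT-CD turned to -0.10 without R403Q-CD mouse 2 (range -0.10 to 0.47 with each mouse left out), and that of Mcm4 between WT-EMPA and WT-CD turned to -0.038 without WT-CD mouse 4 and -0.031 without WT-EMPA mouse 5 (range -0.038 to 0.079). DESeq2 called 805 rather than 98 of all genes between R403Q-CD and WT-CD, 142 rather than 0 between R403Q-EMPA and R403Q-CD, 90 rather than 5 between WT-EMPA and WT-CD, 309 rather than 10 between R403Q-EMPA and WT-EMPA and 1005 rather than 504 over both genotypes. With limma voom these were 91, 0, 6, 11 and 469, and with limma voom and cage as a random effect 205, 0, 1, 11 and 113. The median log2 fold change of the members kept its sign in every fit of each comparison. By phase, the G2/M median of the interaction turned from 0.13 to -0.15 without WT-CD mouse 5 and to -0.016 without R403Q-EMPA mouse 2, and the G1/S median between R403Q-CD and WT-CD, at -0.014, turned to at most 0.056 in 8 fits. Scaling to library size alone moved the median of all genes to 0.08 between R403Q-CD and WT-CD and left 3 rather than 9 members negative. The correlation of Mki67 with Top2a and with Cdk1 fell to 0.330 and 0.324 in the 9 EMPA mice and no longer passed, and with group means subtracted their Spearman values fell to 0.422 and 0.517 and no longer passed. With exon length taken from the longest transcript, 9 rather than 7 members lay above 1 CPM/kb, 1 of them of G2/M (Cenpf). The order changed too, with Mcm7 above Mcm4, Mcm2 above Mcm5 and Ccne2, and Top2a and Ube2c above Mki67. Depth limits Orc1, Ccnb1, Bub1 and Aurkb, which had under 10 counts in 17, 16, 14 and 12 of 21 mice, and Birc5, Bub1b and Ccnb2, which had so in 5, 4 and 4.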
